A study of Mus musculus with 8 samples.

Results

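The miRNAs described here are 7 miRNAs by which blood lineages are commonly known, picked by name from the 1040 mouse probes of the array. Both strands of a hairpin made in nearly all blood cells are among them, mmu-miR-142-3p and mmu-miR-142-5p. Lymphocytes are represented by mmu-miR-150 and mmu-miR-342-3p, myeloid cells by mmu-miR-223, and red cell precursors by mmu-miR-144 and mmu-miR-451. They were compared between CD45+ cells (3 arrays), cortical thymic epithelial cells (cTECs, 2 arrays) and medullary thymic epithelial cells (mTECs, 3 arrays) of untreated 4-week-old female NOD wildtype mice. For each preparation the thymi of 10 to 12 mice were pooled, so that a replicate is a pool. The CD45+ gate took EpCAM- CD45+ cells, which in a thymus are mostly thymocytes with some other leukocytes. The cTEC gate took CD45- EpCAM+ MHC II+ Ly51+ cells and the mTEC gate the same cells without Ly51.

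A miRNA is a short RNA that guides the Argonaute complex to messages with a match to its seed, bases 2 to 8, and lowers their output. miR-142 is a broad marker of hematopoietic cells. miR-150 builds up in mature lymphocytes and represses Myb, and miR-342 lies in an intron of Evl, a gene for an actin regulator. miR-223 is known for restraining granulocytes and is switched on by the myeloid factors PU.1 and C/EBP. miR-144 and miR-451 are cut from a shared transcript under the red cell factor GATA1, and miR-451 is unusual in being matured by AGO2 in place of Dicer. Mature red cells carry no CD45, which the CD45+ gate required.

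The mature sequences, available for 6 of the 7, show which bases the probes read and that these 6 have no seed in common. Each is printed 5′ to 3′ from RefSeq, with the seed in capitals.
mmu-miR-142a-3p: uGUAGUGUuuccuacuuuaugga
mmu-miR-142a-5p: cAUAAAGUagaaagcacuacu
mmu-miR-342-3p: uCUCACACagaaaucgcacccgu
mmu-miR-223-3p: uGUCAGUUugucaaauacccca
mmu-miR-144-3p: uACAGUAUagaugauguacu
mmu-miR-451a: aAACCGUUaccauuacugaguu
Of the members, 6 had a mature sequence in RefSeq, and the probe of each of these 6 held its whole reverse complement, followed by a run of T that links it to the glass. For miR-150 the deposited probe is shown instead, with the bases in capitals that pair with positions 2 to 8 of its target.
miR-150 probe: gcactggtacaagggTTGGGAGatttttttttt
None of the 6 seeds recurred among the 1738 mature sequences of the RefSeq table, GUAGUGU and AUAAAGU of the 2 miR-142 strands included. The nearest other mouse probe differed from that of a member by 7 to 9 single-base edits, with 7 for miR-142-5p, miR-144 and miR-451.

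The 7 miRNAs come from 6 hairpins. In GRCm38.p6 Mir142 lies at chr11:87756864-87756927, and Mir142b overlaps it. Mir144 lies at chr11:78073005-78073070 and Mir451a at chr11:78073170-78073241, with 99 bp between them, and Mir451b overlaps Mir451a. Mir150 lies at chr7:45121757-45121821, Mir342 at chr12:108658620-108658718, overlapping Evl, and Mir223 at chrX:96242817-96242926, overlapping the non-coding gene F630028O10Rik.

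The arrays differed in strength. Before scaling, the 75th percentile of the reference probes was 2910 and 1364 intensity units on the cTEC arrays and 4213 to 11503 on the other 6, so that scaling raised both signal and noise most on cTEC replicate 2. The lowest probe signal well above background, on the scale used below, was 80.2 to 144 on the CD45+ arrays, 67.0 to 223 on the mTEC arrays, and 342 and 621.0 on the cTEC arrays. Against their labels, the mTECs carried all 7 epithelial miRNAs of a marker list well above background on each array, the cTECs 5 and 3 of them, and the CD45+ cells 2, 3 and 0, so that by this count cTEC replicate 2 equalled CD45+ replicate 2. Their summed scaled signal was 36800 to 39058 for mTECs, 8620 and 4442 for cTECs and 623 to 704 for CD45+ cells. In the tests 7 of the 7 were higher in mTECs than in CD45+ cells, beside 9.06% of all tested miRNAs. In cTECs only 1 of the 7 was higher, beside 10.7% of all. Of 6 mesenchymal and endothelial miRNAs, only miR-126-3p of endothelium was well above background on the cTEC arrays, and the summed signal of the 6 was 3257 and 2308 there, against 934 to 1233 in mTECs and 410 to 473 in CD45+ cells. These sums include probes not well above background, whose signals scaling raised most on cTEC replicate 2. miR-126-3p alone gave 1013 to 2615 on the cTEC arrays. It was also well above background on all 3 mTEC and all 3 CD45+ arrays, and miR-214 and miR-10b each were on 2 mTEC arrays. The part of mesenchymal or endothelial cells in the cTEC results was not tested.

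Of the 7, both miR-142 strands, miR-150, miR-342-3p and miR-223 were well above background on all 3 CD45+ arrays, which means that most of the 5 spots of the probe were so by the scanner's own test. The erythroid pair was not. miR-451 was well above background on 0 of 8 arrays and miR-144 on 1, mTEC replicate 3. On the epithelial arrays detection was partial. Those 5 were all well above background on mTEC replicate 1, 4 on mTEC replicate 3 and 2 on mTEC replicate 2, while on each cTEC array only miR-150 was. The 5 entered the tests across miRNAs, and miR-144 and miR-451 did not pass the filter of 2 arrays. miR-342-3p passed this filter only through the CD45+ arrays, as 1 mTEC array and no cTEC array measured it well above background.

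**Figure D1:**
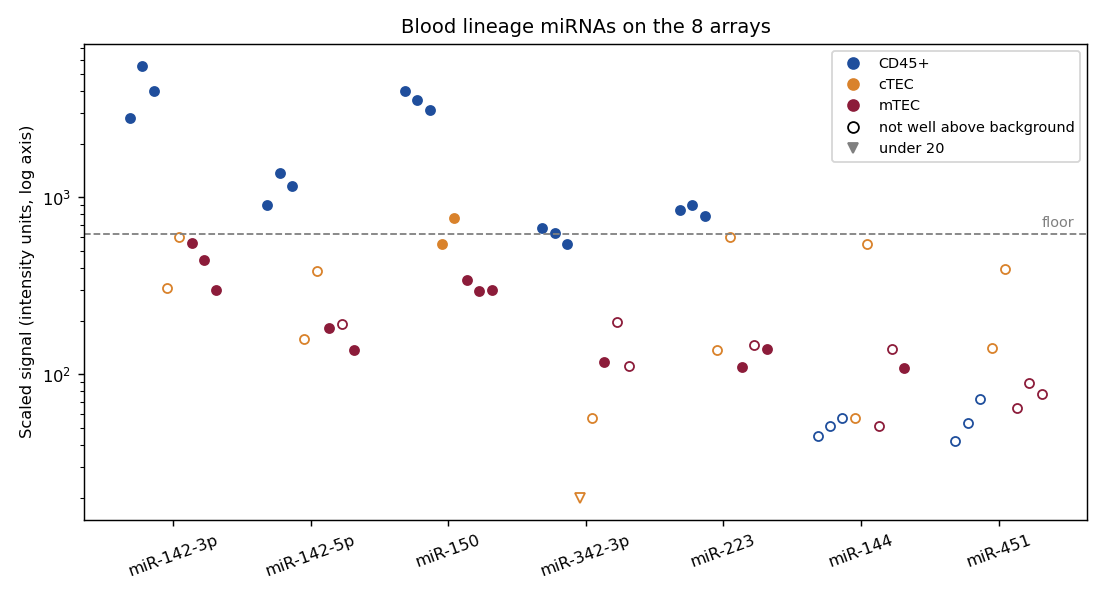
Scaled signal (intensity units, log axis) of the 7 miRNAs on each of the 8 arrays, 1 point per array, in the order CD45+, cTEC, mTEC. Open points are not well above background, the triangle stands for a value under 20, and the dashed line is the floor of 621.0 used in the tests; the CD45+ points of the first 5 miRNAs lie above all epithelial points of the same miRNA.

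miR-142-3p gave scaled signals of 2792, 5553 and 4009 on CD45+ replicates 1 to 3. The mTEC replicates gave 550, 441 and 299.9, and the cTEC replicates 306 and 600.0. CD45+ replicate 2 was the highest of its group and replicate 1 the lowest, and even the latter stood far above the highest epithelial value. Since the miRNA was well above background on all 3 mTEC arrays, the fold could be taken from the measured signals, and CD45+ cells had 9.49-fold more than mTECs (3.25 ± 0.38 on the log2 scale, standard error, 3 arrays against 3). Neither cTEC array measured it well above background, and on this scale CD45+ cells had at least 8.59-fold more. Such limits set the mean of the brighter group against the higher of the dim probe's own signal and its array's lowest signal well above background. In the model across all miRNAs, in which the floor holds the epithelial values up, the log2 fold change against CD45+ cells was -2.67 in mTECs (standard error 0.24, limma adjusted p = 3.137e-04) and -2.65 in cTECs (standard error 0.26, adjusted p = 4.515e-04). RNA was taken from pools of sorted cells, so that fewer cells with a miRNA and less of it per cell cannot be told apart.

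miR-142-5p, the other strand of the hairpin, followed the same order at signals nearer to the background. It gave 910, 1364 and 1155 on the CD45+ arrays. The mTEC arrays gave 183, 193 and 136, of which the second was not well above background, and the cTEC arrays 158 and 383, neither of them well above it. As for miR-142-3p, CD45+ replicate 2 was the highest and replicate 1 the lowest of the CD45+ arrays. On this scale CD45+ cells had at least 6.37-fold more than mTECs and at least 2.45-fold more than cTECs, limits of 2.67 and 1.29 in log2 units. The fitted log2 fold change was -0.86 in both comparisons, because both epithelial groups lay at the floor throughout (standard errors 0.14 and 0.16, adjusted p = 0.004823 against mTECs and 0.006463 against cTECs). With normexp background correction it was -1.92 in mTECs and -0.87 in cTECs, both smaller differences than the limits above. Quantile normalization gave -1.66 in both comparisons, a smaller difference than the limit in mTECs and beyond that in cTECs.

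miR-150 was the only member well above background on all 8 arrays. CD45+ cells gave 3971, 3530 and 3119, mTECs 342, 297 and 299, and cTECs 542 and 769. The CD45+ arrays stood above all epithelial arrays. On this scale the cTEC arrays lay between the others, an order that turned under other scalings, as given below with the comparison of mTECs and cTECs. From the measured signals CD45+ cells had 11.3-fold more than mTECs (3.50 ± 0.12 on the log2 scale) and 5.45-fold more than cTECs (2.45 ± 0.27). The size depends on the scaling. Over the alternatives the fitted log2 fold change of miR-150 ran from -4.14 to -1.20 in mTECs and from -4.67 to -1.20 in cTECs, and that of miR-142-3p from -4.06 to -1.41 and from -5.04 to -1.54. In each range the value nearest 0 came from the deposited log2 table, and all of them passed. The spread among the mTEC arrays, with an SD of 25.6 around a mean of 313, was small beside these differences. In the model with the floor, the change was -2.50 on the log2 scale in mTECs (standard error 0.11, adjusted p = 1.804e-05) and -2.33 in cTECs (standard error 0.13, adjusted p = 4.071e-05).

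miR-342-3p was the dimmest of the lymphoid members. The CD45+ arrays gave 669, 629 and 543, close to the floor itself. On the mTEC arrays the signals were 117, 198 and 112, of which the first alone was well above background, and on the cTEC arrays -72.5 and 56.9. On this scale CD45+ cells had at least 4.28-fold more than mTECs and at least 1.33-fold more than cTECs. The floor left no room for this difference. The fitted log2 fold change was -0.064 in both comparisons (95% confidence interval -0.13 to 0.0025 against mTECs and -0.14 to 0.010 against cTECs), and neither passed (adjusted p = 0.1942 and 0.2254). With the lowest of the arrays' limits as the floor, 67.0, it was -2.30 in mTECs (adjusted p = 2.368e-04) and -2.63 in cTECs (adjusted p = 1.554e-04), and both passed. Over all alternatives it passed in 8 of 22 for mTECs and in 7 of 22 for cTECs. With normexp background correction the fitted log2 fold change was -1.35 in mTECs, and with quantile normalization -0.94. Both were smaller differences than the limit above, 2.10 on the log2 scale. In cTECs these settings gave -0.61 and -0.94, beyond the limit of 0.41.

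miR-223, the myeloid member, gave the most even signals among CD45+ cells, with 843, 902 and 785. The mTEC arrays gave 110, 147 and 140, of which the second was not well above background. The cTEC arrays gave 137 and 597, neither well above background by most spots, although 2 of the 5 spots on replicate 2 were. The high value of cTEC replicate 2 lay just under that array's own limit of 621.0. On this scale CD45+ cells had at least 5.58-fold more miR-223 than mTECs and at least 1.83-fold more than cTECs. The fitted log2 fold change was -0.44 in mTECs (standard error 0.057, adjusted p = 0.001654) and -0.38 in cTECs (standard error 0.063, adjusted p = 0.004299). The call in cTECs was lost with normexp background correction (-0.48, adjusted p = 0.2219), while that in mTECs held there at -1.87, a smaller difference than the limit above. Over the alternatives the fitted log2 fold change of miR-223 ran from -2.77 to -0.39 in mTECs and from -2.81 to -0.32 in cTECs. That of miR-142-5p ran from -2.95 to -0.54 and from -3.23 to -0.57.

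**Figure D2:**
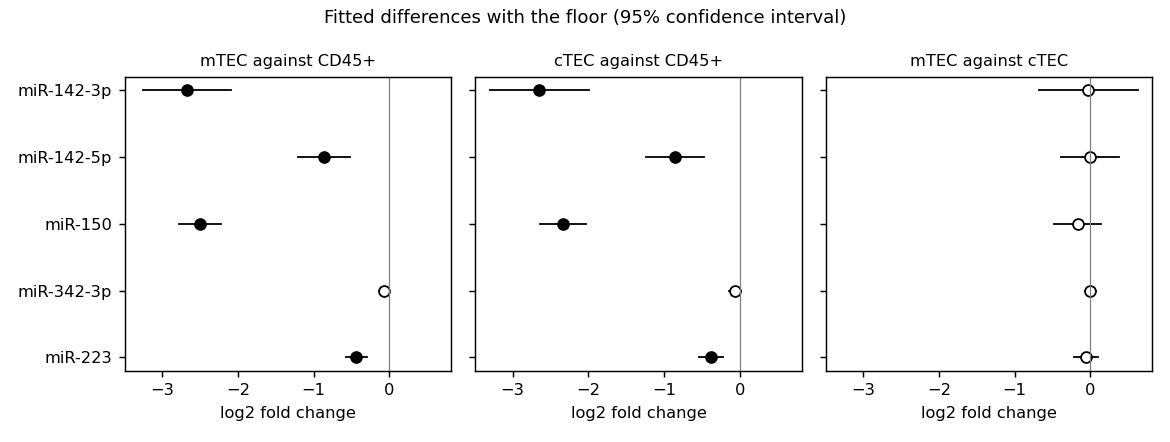
Fitted log2 fold changes of the 5 tested members in the 3 comparisons, with 95% confidence intervals from limma, filled where the adjusted p was under 0.05. Against CD45+ cells, 4 of 5 were lower in each epithelial type. Between mTECs and cTECs none passed, with every mTEC value at the floor.

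Counted together, 4 of the 5 tested members were lower in mTECs than in CD45+ cells and 4 in cTECs, the same 4 miRNAs in both, and none was higher. Over all 309 miRNAs, 23.9% passed in mTECs against CD45+ cells, 14.9% lower and 9.06% higher. This balance turned with normexp (67 higher, 51 lower) and with the lowest floor (76 higher, 64 lower). In cTECs 30.7% passed, 20.1% lower and 10.7% higher. The balance in cTECs depended on the processing too, and on 1 array. The main setting called 33 higher and 62 lower, leaving out cTEC replicate 1 called 110 higher and 60 lower, normexp 197 higher and 52 lower, and no normalization between arrays 2 higher and 111 lower. Both comparisons share the CD45+ arrays. The median log2 fold change of the 5 was -0.86 in each, against 0 over all tested miRNAs. The scaled signals of all 5 were lower on every mTEC array than on any CD45+ array, as they were for 29.8% of all tested miRNAs, and lower on both cTEC arrays, as for 30.1% of all. miR-342-3p was tested only because the CD45+ arrays measured it, so its place in these counts is no support of its own. Mean log2 values with the floor were also compared within each row of 4 arrays on the slide, with 1 or 2 arrays of a group per row. The differences of mTECs from CD45+ cells were -2.66 and -2.69 for miR-142-3p and -2.59 and -2.33 for miR-150. Those of cTECs were -2.66 and -2.64 for miR-142-3p and -2.578 and -2.002 for miR-150. Every mTEC value here, and that of miR-142-3p on cTEC replicate 1, was the floor itself. These differences thus mainly give the height of the CD45+ arrays above the floor.

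The erythroid pair was dim in all 3 populations. miR-144 gave 45.1, 51.1 and 56.7 in CD45+ cells, 51.3, 139 and 108 in mTECs, and 56.8 and 547 in cTECs. Only 3 of its 40 spots were well above background, all 3 on mTEC replicate 3. miR-451 gave 42.0, 53.1 and 72.5 in CD45+ cells, 64.4, 89.4 and 76.9 in mTECs, and 141 and 393 in cTECs. Its 5 spots of 40 that were well above background lay on CD45+ replicate 2 and mTEC replicates 1 and 3, never most of the spots of an array. The high values of both on cTEC replicate 2 lay under that array's limit of 621.0 and no spot of either was well above background there. miR-486, a further red cell miRNA, was well above background on no array. No fold is given for the pair. miR-144 was measured on 1 mTEC array only, and its limit against either other population came to under 1. At these signals a difference in miR-144 or miR-451 between the populations was not detectable.

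**Figure D3:**
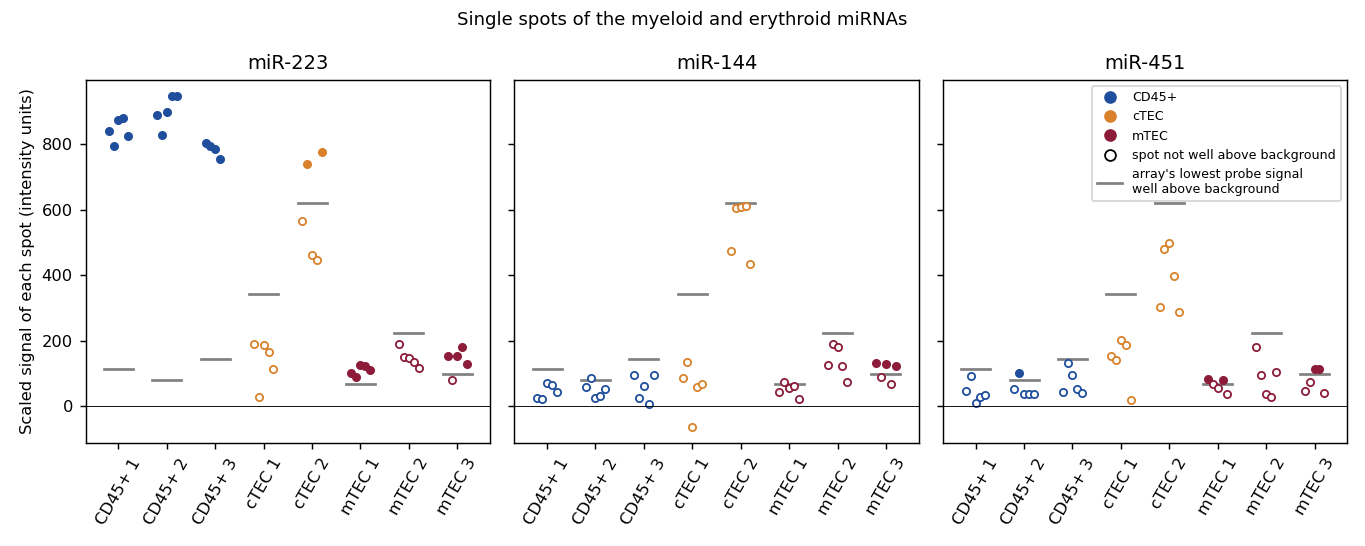
Scaled signal of every spot (intensity units, linear axis) of miR-223, miR-144 and miR-451 on the 8 arrays, filled where the spot was well above background, with the lowest probe signal well above background of each array as a gray bar. The CD45+ spots of miR-223 stand clear of the background, while those of miR-144 and miR-451 lie mostly under the bars and the raised open spots of cTEC replicate 2 stay under that array's bar at 621.0.

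Expressed as a share of the CD45+ mean, the 5 tested members lay between 7.28% and 19.1% wherever an mTEC array measured them well above background. On mTEC replicate 1, where all 5 were well above background, it was 9.67% for miR-150, 13.1% for miR-223, 13.4% for miR-142-3p, 16.0% for miR-142-5p and 19.1% for miR-342-3p. On mTEC replicate 3 the 4 of these 5 that were measured lay at 7.28% for miR-142-3p, 8.45% for miR-150, 11.9% for miR-142-5p and 16.6% for miR-223. On mTEC replicate 2, miR-142-3p was at 10.7% and miR-150 at 8.39%. miR-150 thus varied little over the mTEC arrays, and miR-142-3p was highest on replicate 1 and lowest on replicate 3. On the cTEC arrays miR-150 alone could be measured, at 15.3% and 21.7%. The other members had limits there of 8.31% and 15.1% for miR-142-3p, 29.9% and 54.3% for miR-142-5p, and 40.6% and 73.6% for miR-223, and for miR-342-3p the limit on cTEC replicate 2 was above the CD45+ mean itself. How much of the signal in the epithelial samples came from blood cells that the sort let through was not tested.

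**Figure D4:**
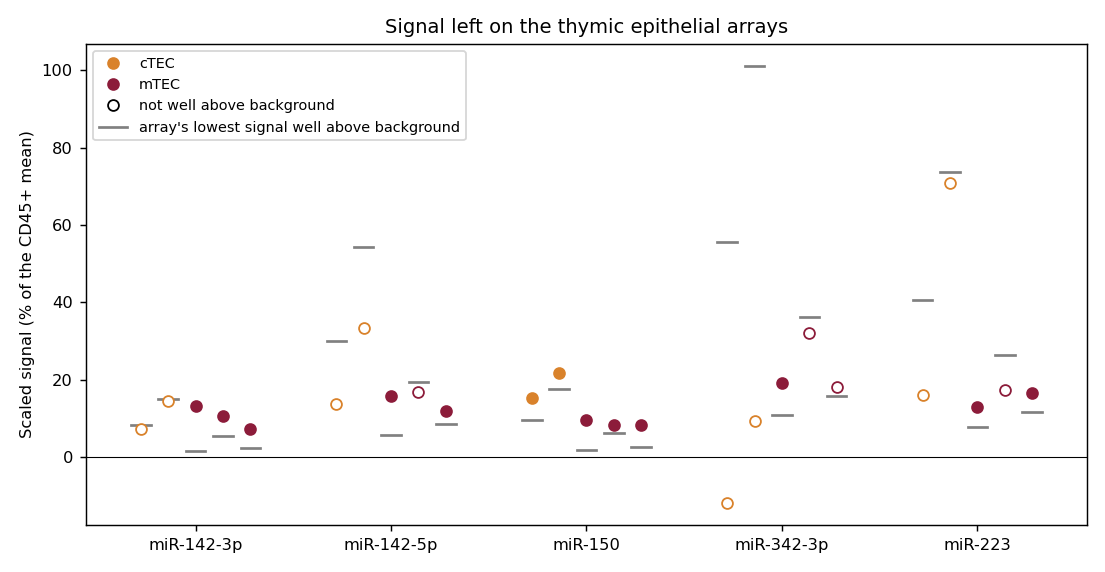
Scaled signal of the 5 tested members on each cTEC and mTEC array, as percent of the mean of the 3 CD45+ arrays, with a gray bar at the lowest signal that the array measured well above background. Filled mTEC points lie between 7.28% and 19.1%, and most cTEC points are open and under their bars.

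Between mTECs and cTECs, 0 of the 5 members passed, against 22.7% of all tested miRNAs (16.2% higher and 6.47% lower in mTECs). Over all miRNAs that balance of 50 higher and 20 lower turned with normexp (45 and 155), with quantile normalization (32 and 37) and without cTEC replicate 1 (47 and 100). On the log2 scale the difference of mTECs from cTECs came to 0 for miR-142-5p and miR-342-3p, for which every epithelial array lay at the floor, -0.025 for miR-142-3p (95% confidence interval -0.68 to 0.63), -0.058 for miR-223 (-0.21 to 0.098) and -0.17 for miR-150 (-0.48 to 0.14). For miR-142-3p, miR-223 and miR-150, too, every mTEC array lay at the floor, and the cTEC arrays at or little above it. The intervals rest on 1 spread shared by all groups, CD45+ cells included. These fitted values therefore say little about a difference between mTECs and cTECs. The adjusted p of limma ranged from 0.4603 for miR-150 to 1. Among the 5, miR-150 was the only one measured on all arrays of both types, and there the cTEC arrays stood 2.07-fold above the mTEC arrays (1.05 ± 0.26 on the log2 scale). It was also the 1 member of 5 whose scaled signals were lower on every mTEC array than on either cTEC array, as were those of 26.9% of all. With the lowest floor this difference passed, at -1.04 for mTECs against cTECs (adjusted p = 0.01315), as it did with the median floor, quantile normalization (-1.28, adjusted p = 0.00598) and normexp background correction (-1.11, adjusted p = 0.009651). With normexp miR-142-5p (-1.05, adjusted p = 0.02432) and miR-223 (-1.39, adjusted p = 0.01312) were also lower in mTECs than in cTECs. For miR-150 the difference was 0.055 when scaled to the 75th percentile of every mouse probe and 0.63 without normalization between arrays. From the log2 values the authors deposited it was 0.0015. The direction of this difference therefore depends on the scaling.

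**Figure D5:**
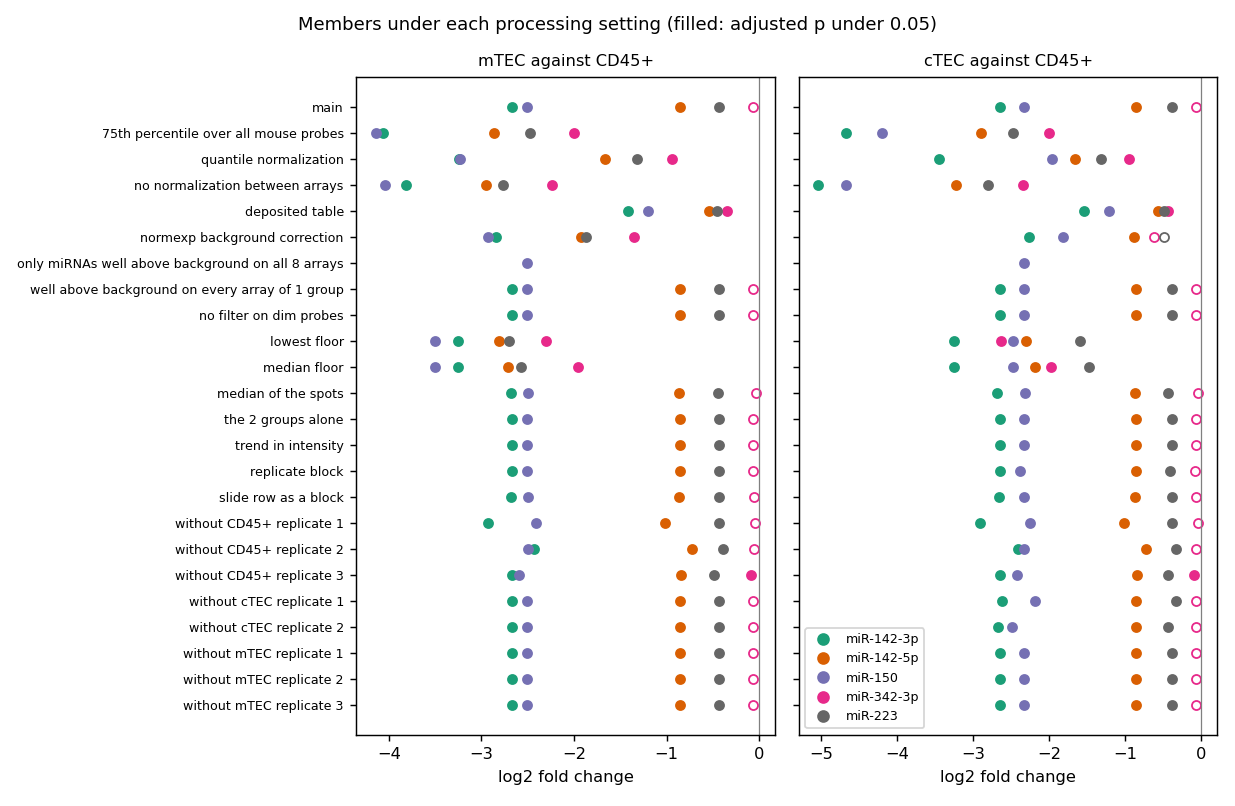
log2 fold changes of the 5 tested members under each processing setting, for mTECs (left) and cTECs (right) against CD45+ cells, filled where the adjusted p was under 0.05. All points lie below 0; miR-150 and both strands of miR-142 are filled wherever they were tested, and miR-342-3p goes from near 0 with the main floor to -2.30 and -2.63 with the lowest floor.

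Among member probes well above background, the coefficient of variation over the spots of a probe had a median of 4.37% on the CD45+ arrays (1.61% to 18.0%), and ran from 3.78% to 28.4% on the mTEC arrays and from 14.2% to 21.8% on the cTEC arrays. The SD over the 3 CD45+ arrays was 1383 around a mean of 4118 for miR-142-3p, 227 around 1143 for miR-142-5p, 426 around 3540 for miR-150, 64.5 around 614 for miR-342-3p and 58.4 around 844 for miR-223. Relative to the mean, the pools of CD45+ cells thus differed most, among these 5, in the 2 strands of miR-142.

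The opposite strands of the hairpins were not seen. miR-342-5p, miR-150*, miR-223* and miR-144* were well above background on none of the 8 arrays, at mean scaled signals of 34.6 to 53.8 on the CD45+ arrays. miR-142 was the exception, as both of its strands were measured in CD45+ cells.

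The profiles of the members over the 8 arrays were set beside those of the 304 other tested miRNAs by the root mean square difference of the log2 values, each centred on its own mean. Nearest to miR-142-3p were miR-20b (0.27), miR-128 (0.31) and miR-15b (0.35). miR-150 had miR-20b (0.23), miR-128 (0.23) and miR-92a (0.26) as its nearest, the first 2 in common with miR-142-3p. For comparison, miR-142-3p and miR-150 were 0.33 apart, and miR-142-3p and miR-142-5p 0.88. miR-142-5p had less room above the floor, and the part of this in the distance was not tested. Nearest to miR-142-5p were miR-15a (0.11), miR-130b (0.11) and miR-3084 (0.19), and to miR-223 miR-181d (0.065), miR-181c (0.070) and miR-3084 (0.082). For miR-342-3p the nearest were miR-669a-3p (0.023), miR-361 (0.036) and miR-500 (0.036), with values near the floor throughout. For miR-142-5p and miR-223, too, the epithelial values lay at or near the floor, so that small distances of these 3 members say little. On every mTEC array miR-142-3p and miR-150 were also at the floor, and on the cTEC arrays at or little above it. This limits what their distances show as well.

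A list of 12 further lymphocyte miRNAs gives the setting for these values: miR-155, the 4 miR-181 forms, miR-146a and 6 of the miR-17-92 cluster. In mTECs 10 of the 12 were lower than in CD45+ cells and none higher, with a median log2 fold change of -1.71, beside 14.9% of all tested miRNAs that were lower. In cTECs all 12 were lower, with a median of -1.96, beside 20.1% of all. The list was drawn up with these results known. The largest fitted differences in mTECs were those of miR-181a (-3.67, adjusted p = 0.001707), a miRNA that tunes T cell receptor signalling, miR-181b (-2.13, adjusted p = 3.321e-05) and miR-92a (-2.12, adjusted p = 2.549e-04). The smallest fitted differences among those that passed were miR-181c (-0.34), miR-181d (-0.36) and miR-18a (-1.44). The mTEC means of miR-181b, miR-181c and miR-181d lay at the floor, which limits their fitted values. As shares of the CD45+ mean, miR-181c and miR-181d were at 12.5% to 24.3% on the mTEC arrays, with neither well above background on replicate 2, and miR-18a was at 32.7% to 36.6%. The 2 that did not pass in mTECs, miR-155 and miR-146a of NF-kB signalling, stood at 44.9% to 74.9% and 94.2% to 112% of the CD45+ mean on the mTEC arrays, beside the 7.28% to 19.1% of the tested members where measured. Between mTECs and cTECs, 5 of the 12 were higher in mTECs and none lower, beside 16.2% and 6.47% of all. Of the 8 further myeloid, erythroid and megakaryocyte miRNAs in the table, 5 were tested. In mTECs miR-15a was lower (-0.73, adjusted p = 0.001161) and the other 4 did not pass. In cTECs miR-21, miR-16 and miR-15a were lower, and miR-126-3p was higher (1.38, adjusted p = 0.03351).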

How the data were processed

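RNA of 8 cell preparations was labelled with Cy3, 1 array each. The deposited scanner files hold the intensity of every spot, raw and after subtraction of background by Feature Extraction (version 10.7.3.1 per the file headers). The authors also deposited a quantile-normalized log2 table, used as an alternative; its columns of fold changes, adjusted p-values and log odds were not used.

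From the background-subtracted intensity, values were computed with limma 3.58.1 under R 4.3.3. Outlier spots were left out, and arrays were brought to a common 75th percentile over those 65 mouse probes that all 8 arrays measured well above background. The scaled signal is the mean of a probe's spots. For the tests, spots under a floor of 621.0, the highest of the 8 arrays' lowest probe signals well above background, were set to it and log2 values averaged, which understates differences from groups at the floor. The 309 miRNAs that 2 or more arrays measured well above background entered 1 model of the 3 group means (lmFit, eBayes, Benjamini-Hochberg), the 83 at the floor everywhere as not different. The model and its calls for mTECs against CD45+ cells were tested on simulated data, which had no floor.

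The members, the floor and the lists were chosen with earlier results of these data known. Also named were opposite strands, list members with the largest and smallest called differences, and the 3 miRNAs most like each member. Alternatives were other scalings, normexp, the deposited table, filters, floors, replicate or slide row blocks, and each array left out. Sequences and gene positions are from RefSeq (GRCm38.p6).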

Additional observations from a re-analysis of the deposited data

How the results depend on the processing

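Number of members called. With only miRNAs well above background on all 8 arrays, miR-150 was the only member left, so that 1 was called against CD45+ cells in each epithelial type. Between mTECs and cTECs, 1 was called with quantile normalization and with the lowest and median floors, and 3 with normexp. With each array left out, 4 to 5 members were called in each comparison with CD45+ cells and 0 to 0 between mTECs and cTECs. The fifth, miR-342-3p, passed without CD45+ replicate 3 (adjusted p = 0.04102 for mTECs and 0.04761 for cTECs).

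Direction. Between mTECs and cTECs the sign turned for miR-142-3p with scaling to the 75th percentile of every mouse probe (0.61), with quantile normalization (0.20), without normalization (1.22) and with the deposited log2 table (0.12), for miR-150 with the first (0.055), no normalization (0.63) and the deposited table (0.0015), and for miR-223 with no normalization (0.038) and the deposited table (0.024). For none of the 5 tested members did the difference from CD45+ cells change its sign under any alternative. The cause of these shifts was not tested.

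All tested miRNAs. In mTECs against CD45+ cells, 74 passed (28 higher, 46 lower), against 121 from the deposited table, 118 with normexp (67 higher, 51 lower), 31 with the filter on all 8 arrays, 140 with the lowest floor (76 higher, 64 lower) and 115 with the median floor (55 higher, 60 lower), and 67 to 75 with each array left out. Scaling to the percentile of every mouse probe gave 18 higher and 92 lower, and no normalization 26 and 66. In cTECs against CD45+ cells, 95 passed (33 higher, 62 lower), against 249 (197 higher, 52 lower), 53, 224 (139 higher, 85 lower) and 200 (119 higher, 81 lower) with normexp, that filter and those floors, and 82 to 170, the last without cTEC replicate 1 (110 higher, 60 lower). The percentile of every probe gave 6 higher and 114 lower, no normalization 2 and 111, and the deposited values 26 and 112. With the filter on all 8 arrays the balance turned, at 29 higher and 24 lower. In mTECs against cTECs, 70 passed (50 higher, 20 lower), against 39 after scaling to the percentile of every mouse probe (38 higher, 1 lower), 200 with normexp (45 higher, 155 lower), 38 with the filter (16 higher, 22 lower), 129 (72 higher, 57 lower) and 130 (70 higher, 60 lower) with the floors, and 58 to 147, the last without cTEC replicate 1 (47 higher, 100 lower). No normalization gave 73 higher and 0 lower, and quantile normalization 32 and 37.

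Pairing. Deviations from the group means of arrays with the same replicate number had correlations from -0.217 to 0.278 across miRNAs. Those with unlike numbers had -0.341 to 0.276. In groups of 2 or 3 arrays such deviations depend on each other, so this check cannot show whether the numbers mark pairs. The numbers were not taken as pairs because no label says that they mark a shared sort. With the replicate block, 4, 4 and 0 members were called in the 3 comparisons, as without it, and the log2 fold change of miR-150 in cTECs against CD45+ cells was -2.38 (adjusted p = 8.914e-04).

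Precision is limited by having 2 or 3 arrays a group. The model sets signals under the floor equal.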
